A study of Mus musculus with 2 samples.

Results

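The genes described here are 34 that encode enzymes and regulators of cholesterol and fatty acid synthesis, taken by gene symbol from the 27998 genes of 2 single-cell RNA-seq libraries of mouse lung. All 34 symbols were found. They fall into 6 mevalonate enzymes, 9 squalene and sterol enzymes, 4 regulators, 5 genes of carbon supply and fatty acid synthesis, 7 desaturases and elongases, and 3 genes of glycerolipid assembly, phospholipid remodelling and sterol transport. Each library came from whole lung of 1 male C57Bl/6J mouse, 3 months old, killed 14 days after particles were put into the trachea. One library is labelled control and the other fibrosis. The treatment label names 100 µg of crocidolite asbestos, a fibre that causes lung fibrosis, or of titanium dioxide, commonly used as an inert particle, without saying which mouse received which. With 1 mouse in each group no difference had a replicate check, no test was possible, and mouse, library and treatment cannot be told apart.

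Cells make cholesterol from acetyl-CoA through the mevalonate pathway, and fatty acids from the same precursor. When membrane sterol is low, SCAP escorts SREBP transcription factors (Srebf1 and Srebf2) out of the endoplasmic reticulum, where INSIG proteins otherwise hold them, and the cleaved factors switch on the enzymes of both pathways. In the lung, alveolar type 2 (AT2) cells make the phospholipids of surfactant and are known for high lipid synthesis, whereas alveolar macrophages take up and clear surfactant.

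SREBP proteins bind sterol response elements close to the start of many of these genes, often with the CCAAT-binding factor NF-Y beside them. The promoters of 3 members are shown. All 3 are among the 4 members that held the core letters given below, so they are not typical of the members. RefSeq windows (GRCm38.p6) were given for 27 of the 34 members. Fdps, Fdft1, Sqle, Scd1, Scd2, Fads1 and Stard4 had none in the table used. The 250 bases before each start follow, with the letters TCACNCCA, taken as the core of a sterol response element, and CCAAT in capitals on either strand. Hmgcs1 makes the first committed intermediate of the pathway (chr13:119690101-119690350, plus strand). Msmo1 removes methyl groups from sterols (chr8:64733579-64733828, minus strand), and Srebf2 is the SREBP most tied to cholesterol genes (chr15:82147019-82147268, plus strand).
Hmgcs1: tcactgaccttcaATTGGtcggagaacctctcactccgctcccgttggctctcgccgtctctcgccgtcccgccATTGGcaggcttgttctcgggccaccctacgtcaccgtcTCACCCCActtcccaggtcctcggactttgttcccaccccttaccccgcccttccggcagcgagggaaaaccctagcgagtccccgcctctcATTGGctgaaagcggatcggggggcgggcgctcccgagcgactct
Msmo1: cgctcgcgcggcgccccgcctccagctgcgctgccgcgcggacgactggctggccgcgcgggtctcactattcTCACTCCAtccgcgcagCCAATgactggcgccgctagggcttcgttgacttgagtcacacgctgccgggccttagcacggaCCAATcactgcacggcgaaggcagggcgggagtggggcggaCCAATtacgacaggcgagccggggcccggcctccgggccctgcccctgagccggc
Srebf2: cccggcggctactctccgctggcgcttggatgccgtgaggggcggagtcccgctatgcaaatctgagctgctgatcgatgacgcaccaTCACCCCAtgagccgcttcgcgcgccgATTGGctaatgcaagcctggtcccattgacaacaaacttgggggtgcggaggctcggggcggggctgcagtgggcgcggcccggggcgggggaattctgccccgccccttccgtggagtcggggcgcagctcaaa
The core letters lie 137 bases before the RefSeq start of Hmgcs1, 177 before Msmo1 and 162 before Srebf2, and none overlaps a CCAAT. GENCODE M21 places the start of Msmo1 at 64733792 and that of Srebf2 at 82147181, both inside the windows shown. By that annotation the Msmo1 core lies within the gene. Hmgcs1, Msmo1, Srebf2 and Gpam were the 4 of 27 members with TCACNCCA. Of the 27025 genes in the table, 4.20% held it in a window of the same length. CCAAT was found in 21 of the 27 members and in 37.5% of all genes. Both motifs stood in 1 window in the same 4 members and in 1.46% of genes. Of 2 other motifs searched on both strands, the E-box CACGTG was in 6 of 27 members and 6.86% of genes, and CCGCCC was in 22 of 27 and 35.4%. These are matches of letters and describe no binding.

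The control library held 8280 cells and 36632591 UMIs (unique molecular identifiers, each standing for 1 captured transcript), and the fibrosis library 7173 cells and 38090308 UMIs. Median depth was 3784 and 4292 UMIs per cell, and 89 cell barcodes occurred in both libraries. The 34 genes took 0.275% of the control UMIs and 0.501% of the fibrosis UMIs. These shares are over whole libraries, which differ in their mix of cells. The AT2-like cells gated below were 12.4% of control and 23.7% of fibrosis cells that passed the filter. Of the member UMIs they held 64938 of 100627 in control and 132297 of 190805 in fibrosis. Cells were gated into classes by how many markers of a class had a UMI. None of the 34 genes is a marker, and 10 classes had at least 50 cells in each library. The gates of the 2 main classes took 996 control and 1646 fibrosis cells as AT2-like (at least 6 of 7 markers such as Sftpc and Lamp3). As alveolar macrophage-like they took 638 and 890 cells (at least 5 of 9 such as Siglecf and Marco). Median depth in the AT2-like class was 5648 and 5478 UMIs per cell, and in the alveolar macrophage-like class 4972 and 5255. Levels below are UMIs of a gene per 1000000 UMIs of the class (CPM). A UMI marks the 3′ end of a transcript once, whatever its length, so levels are not scaled by length. How well capture and counting match between genes was not tested, so comparisons between genes are of UMIs counted. Intervals are exact 95% intervals that cover counting error only. A gene counted as past the fold when it had at least 50 UMIs over both groups and its levels differed by more than 1.5-fold.

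Most members were highest in AT2-like cells. Of the 34 members, 26 had their highest level over the 10 classes in AT2-like cells, and this held for 26 in either library. In 22 (control) and 21 (fibrosis) of them the interval lay clear of that of the next class. The members took 1.07% (control) and 1.34% (fibrosis) of all UMIs of AT2-like cells, against 0.0972% and 0.133% in alveolar macrophage-like cells.

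**Figure D1:**
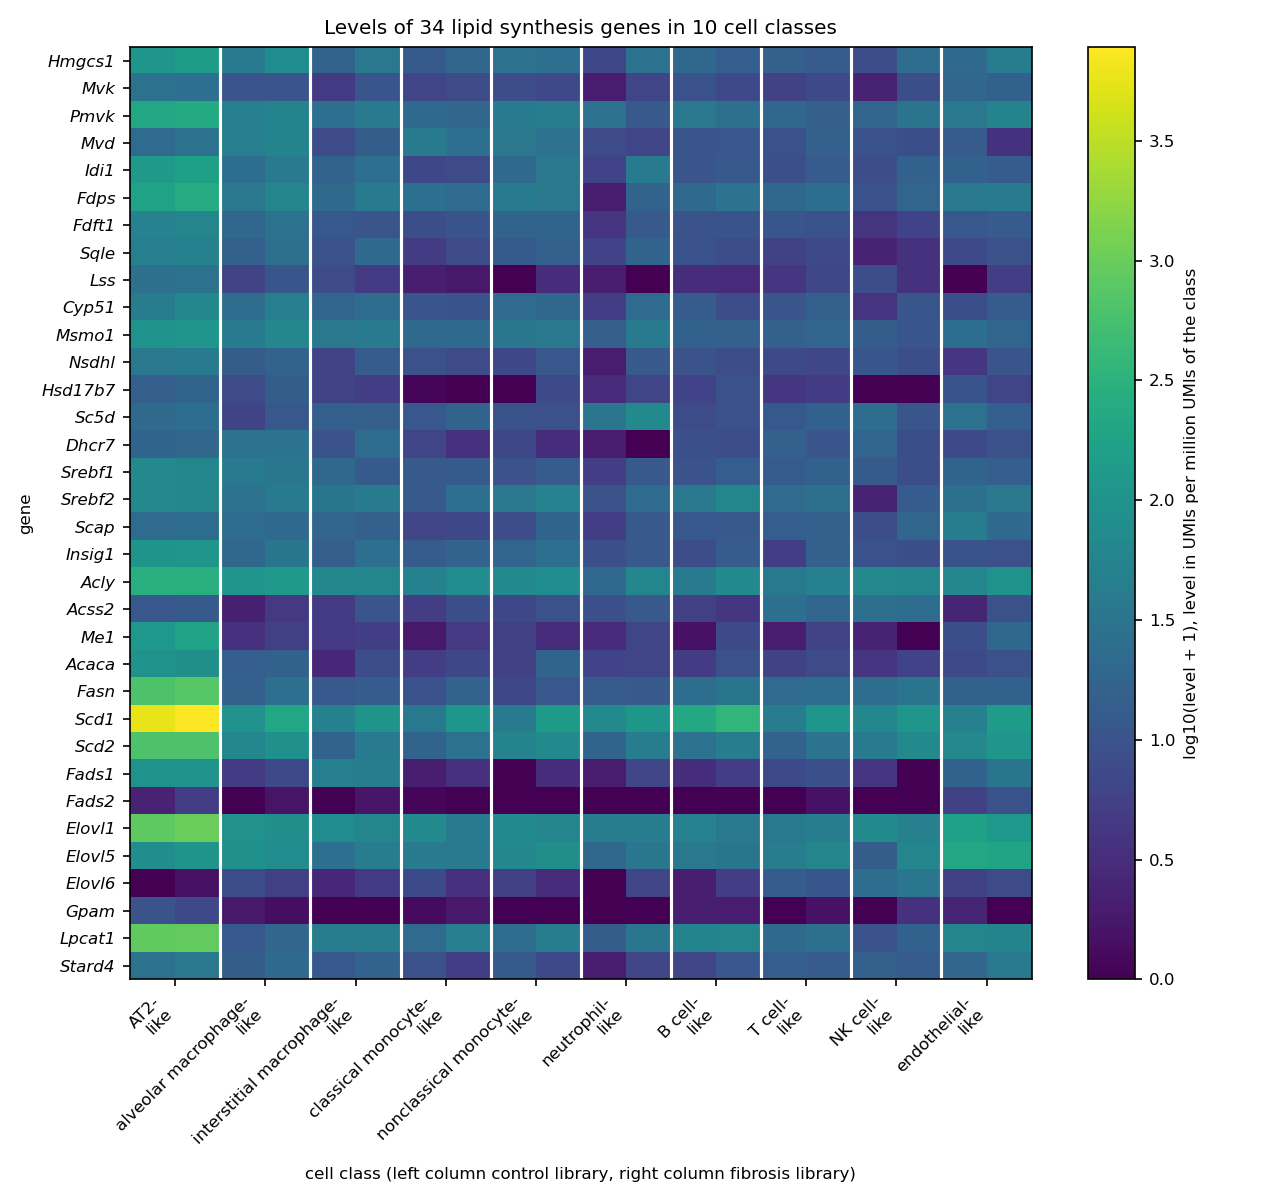
Heat map of log10(level + 1), with the level in CPM, for the 34 genes (rows, ordered by role) in 10 cell classes, each with a control column (left) and a fibrosis column (right). The AT2-like columns are brightest for most rows, with Scd1 the brightest at 5723 and 7793 CPM, while Elovl5 is brightest in endothelial-like and Elovl6 in NK cell-like columns.

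The members highest in AT2-like cells were those that make and modify fatty acids. Scd1, the stearoyl-CoA desaturase that puts the first double bond into saturated fatty acids (ENSMUSG00000037071, chr19:44394455-44407879), stood at 5723 CPM in control and 7793 CPM in fibrosis AT2-like cells. It took more than 50% of all member UMIs of the class in both libraries, and 995 of 996 control and 1644 of 1646 fibrosis AT2-like cells held at least 1 Scd1 UMI. Elovl1, an elongase of very long saturated chains, was at 839 and 1003 CPM. Lpcat1, which remodels phosphatidylcholine to the dipalmitoyl form of surfactant, was at 866 and 914 CPM, above Elovl1 in control and below it in fibrosis. Fasn, fatty acid synthase, was at 643 and 766 CPM, and Scd2, a second stearoyl-CoA desaturase, at 633 and 646 CPM. Fasn was 26.7 and 24.0 times as high in AT2-like cells as in the next class, B cell-like, and Lpcat1 14.8 and 15.9 times as high as in its next classes.

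Some members had their highest level in another of the 10 classes. Elovl5, an elongase of polyunsaturated chains, was highest in endothelial-like cells at 208 CPM (174 to 246) in control and 185 CPM (156 to 219) in fibrosis, above AT2-like cells at 80.7 and 104 CPM. Mvd, which makes isopentenyl diphosphate, was highest in alveolar macrophage-like cells at 44.9 and 56.2 CPM against 22.1 and 28.5 CPM in AT2-like cells. In control the next class for Mvd was classical monocyte-like at 38.7 CPM, with overlapping intervals. Dhcr7, the last step to cholesterol, was also highest there, at 28.1 and 29.1 CPM, with intervals that overlapped those of the next class. Sc5d, a sterol desaturase, was highest in neutrophil-like cells at 32.1 CPM (32 UMIs) and 71.6 CPM (13 UMIs). In control its next class was endothelial-like at 27.7 CPM, with overlapping intervals. Elovl6, which extends palmitate to stearate, was near absent from AT2-like cells, with 0 UMIs in control (a limit of 0.494 CPM) and 5 in fibrosis. Its level reached 23.2 and 33.0 CPM in NK cell-like cells on 16 and 13 UMIs. In control that interval overlapped the one of T cell-like cells. Acss2, which activates acetate, was also highest in NK cell-like cells at 26.1 and 22.9 CPM, close to T cell-like cells at 25.6 and 17.3 CPM. Fads1, a desaturase of polyunsaturated chains, was second highest in interstitial macrophage-like cells at 46.4 and 43.7 CPM, while alveolar macrophage-like cells held 3.67 and 6.13 CPM.

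In AT2-like cells no member with at least 50 UMIs was past 1.5-fold between the libraries in either direction. Of the 32 members with enough UMIs, 0 were past the fold higher and 0 lower, where 5.67% of all 9864 genes tested were past it higher and 2.91% lower. The median log2 ratio of fibrosis over control was 0.14 over the 32 members and 0.045 over all genes, and 27 of 32 members lay above 0 against 57.6% of all genes. Fads2 and Elovl6 had too few UMIs. Fads2 stood at 1.32 CPM in control and 4.15 CPM in fibrosis, a difference past 1.5-fold that rests on few UMIs. The members' summed level was 10700.0 CPM in control and 13402 CPM in fibrosis AT2-like cells (log2 ratio 0.32, 0.31 to 0.34), and without Scd1 the log2 ratio was 0.17. With cells held to at most 5% mitochondrial UMIs, which left 380 and 759 cells, 6 members were past the fold higher, among them Scd1, Fdps, Cyp51 and Me1. The share of all genes past the fold in those cells was not counted, so the 6 are not read as a result about the members. The 9 alveolar macrophage markers summed to 79.3 CPM in control and 303 CPM in fibrosis AT2-like cells, none at 0, and their part in these values was not tested.

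Among the mevalonate enzymes of AT2-like cells, Fdps, which makes farnesyl diphosphate, stood at 172 CPM in control and 245 CPM in fibrosis (log2 ratio 0.51, 0.41 to 0.62). In the injury-marker low and high cells described below, the ratio of Fdps was 0.20 and 0.21. Hmgcs1 was at 112 and 139 CPM (0.32, 0.19 to 0.45) and Idi1, the isomerase of isopentenyl diphosphate, at 128 and 161 CPM (0.33, 0.20 to 0.45). All 6 mevalonate enzymes but Mvk, mevalonate kinase (log2 ratio -0.16), were higher in fibrosis. Of the sterol enzymes, Cyp51, which removes a methyl group from lanosterol, came nearest to the fold at 43.3 and 64.1 CPM (0.57, 0.36 to 0.78). The other 8 sterol enzymes had log2 ratios between 0.10 and 0.29, with intervals that reached below 0. The regulators lay close to 0: Srebf1 at 65.7 and 60.4 CPM, Srebf2 at 66.4 and 60.3 CPM, and Insig1 at 103 and 105 CPM.

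The fatty acid genes of AT2-like cells differed among themselves. Scd1 had a log2 ratio of 0.45 (0.43 to 0.46), and Me1, the malic enzyme that supplies NADPH, one of 0.54 (0.41 to 0.67) from 120 and 174 CPM. Elovl5 had 0.36 (0.20 to 0.52), Elovl1 0.26 and Fasn 0.25. Acly, which releases acetyl-CoA from citrate, was level at 274 and 275 CPM, as was Scd2, whose interval ran from -0.03 to 0.09. Acaca, which makes malonyl-CoA for chain growth, was at 94.1 and 87.2 CPM, and Gpam, which starts glycerolipid assembly, at 9.06 and 6.28 CPM. Scd1 and Scd2 lie side by side on chromosome 19 and are close copies, and how the counting shared reads between them is not given in the sources used here.

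Alveolar macrophage-like cells had lower levels and larger differences. Of 28 members with at least 50 UMIs, 14 were past 1.5-fold higher in the fibrosis library, where 5.02% of all 8569 genes tested were, and 0 were past it lower, where 4.96% of all genes were. The median log2 ratio was 0.61 over the 28 members and -0.055 over all genes, and 23 of the 28 lay above 0 against 42.2% of all genes. Acss2, Me1, Fads1, Fads2, Elovl6 and Gpam had too few UMIs. By role, 6 of 9 sterol enzymes, 3 of 6 mevalonate enzymes, 1 of 4 regulators, 1 of 3 genes of fatty acid supply, 1 of 4 desaturases and elongases and 2 of 2 genes of the last group were past the fold. Of the members past the fold, Msmo1 lay nearest to the limit at a log2 ratio of 0.64, and Scd2, at 0.57, fell just short of it.

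**Figure D2:**
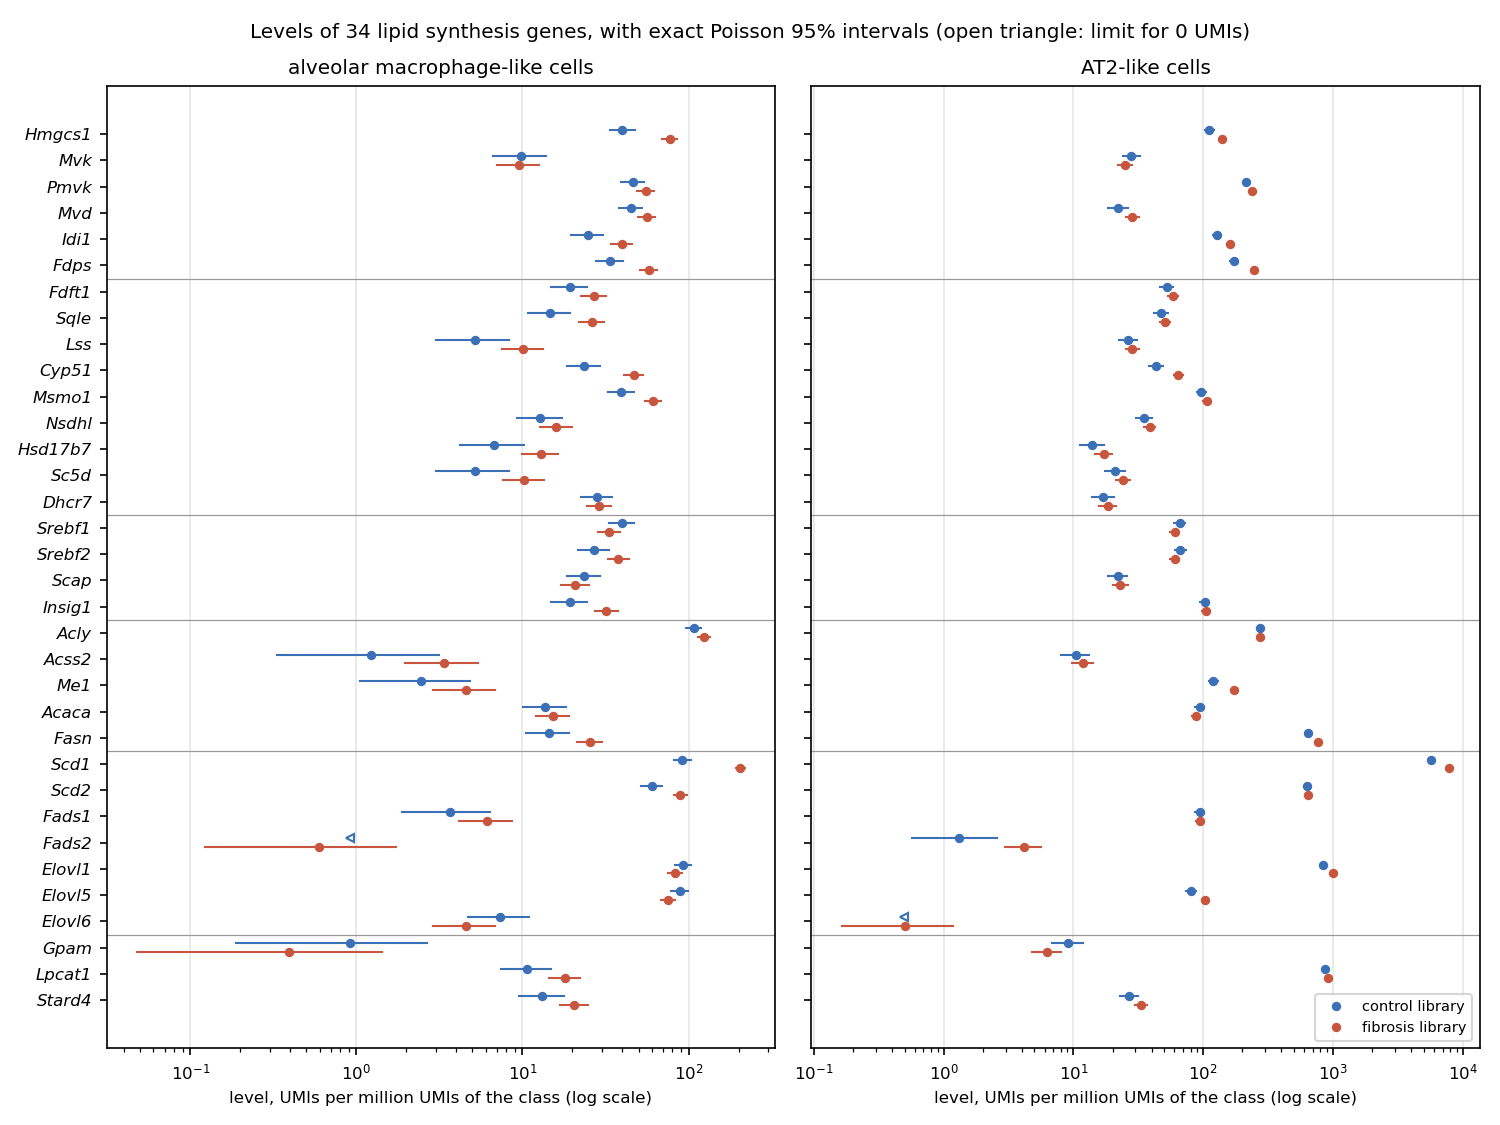
Level of each of the 34 genes (rows, by role) in CPM on a log scale, in alveolar macrophage-like cells (left) and AT2-like cells (right), for the control (blue) and fibrosis (red) library; bars are exact Poisson 95% intervals and open triangles the limit that 0 UMIs allows. In the left panel the red points of Hmgcs1, Fdps, Cyp51 and Scd1 stand clear to the right of the blue ones, while in the right panel most pairs nearly coincide.

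In the mevalonate steps, Hmgcs1 stood at 40.0 CPM (33.5 to 47.5) in control and 76.9 CPM (69.5 to 85.0) in fibrosis alveolar macrophage-like cells, a log2 ratio of 0.94 (0.65 to 1.24). Fdps was at 33.6 and 57.7 CPM (0.78, 0.46 to 1.11). Idi1 was at 24.7 and 39.6 CPM (0.68, 0.30 to 1.07). The fibrosis library was the higher in all 3, and the intervals of its levels did not overlap those of the control library. Pmvk, phosphomevalonate kinase, and Mvd had smaller log2 ratios of 0.26 and 0.32, and Mvk was at 9.77 and 9.49 CPM.

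The sterol steps showed the same direction in all 9 enzymes. Cyp51 was at 23.5 and 46.7 CPM, a log2 ratio of 0.99 (0.61 to 1.38). Sqle, squalene epoxidase, a rate-limiting step, was at 14.7 and 26.3 CPM (0.84, 0.36 to 1.35). Msmo1 was at 39.4 and 61.5 CPM (0.64, 0.34 to 0.95). Lss, which closes the sterol ring, rested on few UMIs, 17 and 51, at 5.19 and 10.1 CPM (0.96, 0.14 to 1.84). Sc5d, on 17 and 52 UMIs, was at 5.19 and 10.3 CPM (0.99, 0.17 to 1.87), and Hsd17b7, which acts on the sterol 3-ketone, was at 6.72 and 12.9 CPM (0.94, 0.22 to 1.70) on 22 and 65 UMIs. The width of these intervals limits how well the size of the last 3 is known. Dhcr7 was at 28.1 and 29.1 CPM, and Fdft1, squalene synthase, and Nsdhl, a sterol dehydrogenase, had log2 ratios of 0.48 and 0.32.

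Among the regulators, Insig1, itself a target of SREBP, was at 19.2 CPM in control and 32.0 CPM in fibrosis (0.74, 0.31 to 1.18). Srebf2 was at 26.9 and 37.8 CPM (0.49, 0.12 to 0.87). Srebf1 was at 39.7 and 33.2 CPM and Scap at 23.5 and 20.8 CPM, both with intervals of the ratio on either side of 0. Of the 4 regulators, Insig1 and Srebf2 were thus the higher ones in fibrosis.

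The fatty acid and phospholipid members past the fold were Scd1, Fasn, Lpcat1 and Stard4. Scd1 was at 91.9 CPM (81.8 to 103) and 205 CPM (193 to 218), the largest ratio among members with enough UMIs (1.16, 0.97 to 1.35). Fasn was at 14.4 and 25.5 CPM (0.83, 0.34 to 1.34), Lpcat1 at 10.7 and 18.0 CPM (0.75, 0.17 to 1.36), and Stard4, a carrier of cholesterol between membranes, at 13.1 and 20.6 CPM (0.65, 0.12 to 1.20). Of the elongases, Elovl1 was at 92.9 and 83.3 CPM (-0.16, -0.37 to 0.06) and Elovl5 at 88.6 and 75.4 CPM (-0.23, -0.46 to -0.01), both within the fold, and Elovl6 had too few UMIs. In the Mmp12-high cells described below the ratio of Elovl5 was 0.26 (-0.49 to 1.08). Acly was at 108 and 124 CPM, and Scd2 at 60.2 and 89.4 CPM (0.57, 0.33 to 0.82).

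RNA of AT2-like cells was present in the other classes and moved with these values. The summed level of the 7 AT2 markers in alveolar macrophage-like cells was 1516 CPM in control and 2046 CPM in fibrosis, with none at 0, and Sftpc stood there at 0.591% and 0.856% of its AT2-like level. At those shares AT2 RNA would bring 33.8 and 66.7 CPM of Scd1, 3.80 and 6.56 CPM of Fasn and 5.11 and 7.83 CPM of Lpcat1, against 0.659 and 1.19 CPM of Hmgcs1 and 0.256 and 0.549 CPM of Cyp51. With these amounts subtracted, 14 members remained past the fold higher, the median was 0.61 and the log2 ratio of Scd1 was 1.25. That share covered 47.8% of the control level of Lpcat1 and 26.5% of that of Fasn, against 1.65% of that of Hmgcs1. Taken instead at the median share of the 7 markers, 0.783% and 1.38%, the amount of Scd1 would be 44.8 and 107 CPM. Sftpc had the lowest share of the 7 markers in both libraries. How many members stay past the fold when a higher share is subtracted was not tested. The 6 markers of interstitial macrophages also stood higher in fibrosis alveolar macrophage-like cells, at a summed 34.8 and 73.8 CPM with none at 0, and their part in the result was not tested. Scd1 in T cell-like cells, at 41.6 and 111 CPM, was 99.6% covered by their Sftpc share in control and 59.4% in fibrosis.

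**Figure D3:**
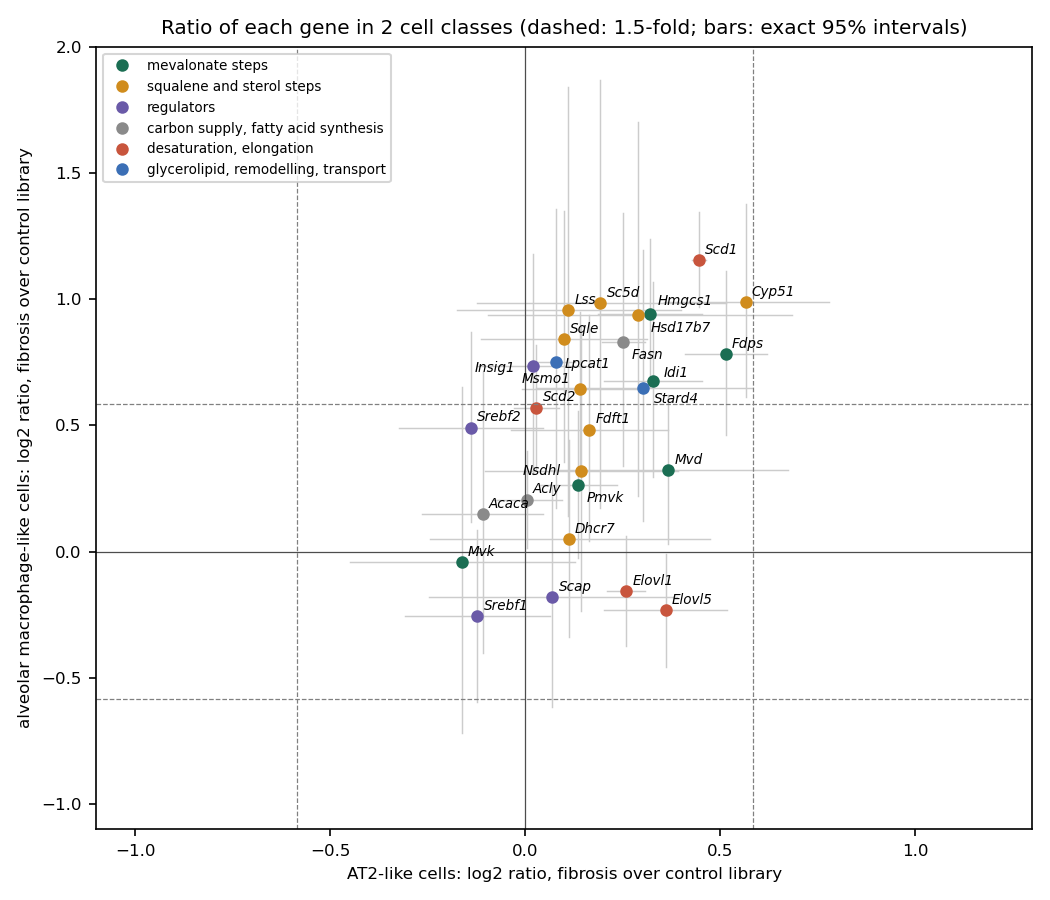
Log2 ratio of fibrosis over control in AT2-like cells (horizontal axis) against alveolar macrophage-like cells (vertical axis) for members with at least 50 UMIs in both, coloured by role; grey bars are exact 95% intervals and dashed lines mark 1.5-fold. No point lies past a dashed vertical line, while 14 lie above the upper dashed horizontal line, most of them mevalonate and sterol enzymes.

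The class comparison can be read per gene in the plot of ratios in the 2 classes. Hmgcs1 had 0.94 in alveolar macrophage-like cells and 0.32 in AT2-like cells, Sqle 0.84 and 0.10, Insig1 0.74 and 0.02, and Scd1 1.16 and 0.45. Cyp51 and Fdps were among the higher ratios of both classes. Elovl5 had -0.23 in alveolar macrophage-like cells and 0.36 in AT2-like cells. Whether the libraries differ more in one class than in the other was not tested, as each class has 1 mouse in each group.

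Other genes of lipid metabolism were counted from lists kept apart from the 34. Of 24 other genes of the same synthesis pathways with enough UMIs in alveolar macrophage-like cells, 5 were past the fold higher and 2 lower, with a median of 0.00, where 5.02% and 4.96% of all genes were past it. Among the higher ones, Acat2, which joins acetyl-CoA units ahead of Hmgcs1, was at 4.89 and 12.7 CPM (1.37), and Mid1ip1, a partner of acetyl-CoA carboxylase, at 25.7 and 38.8 CPM (0.60). The 2 lower ones build glycerolipids: Agpat2, at 20.2 and 9.30 CPM (-1.12), and Dgat2, which makes triglyceride, at 30.2 and 18.2 CPM (-0.73). Of 11 efflux and liver X receptor genes 1 was past the fold, Ch25h, which makes 25-hydroxycholesterol, at 44.6 and 167 CPM (1.90). No gene of 11 in fatty acid oxidation was past it in either direction, and of 9 phosphatidylcholine and surfactant genes only Slc34a2, an AT2 marker, was, at 33.0 and 66.1 CPM. With lists this short, 0 or 1 gene past the fold lies near the share over all genes.

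In AT2-like cells the same lists gave few genes past the fold. Of 30 other synthesis genes, 0 were higher and 2 lower, Ggps1 and Thrsp, at log2 ratios of -0.77 and -0.62 on 88 and 109 UMIs. Abcg1 and Lipa, of 10 efflux genes, were higher at 0.98 and 1.17, and 0 of 11 oxidation and 0 of 10 surfactant lipid genes were past the fold in either direction. Over all genes 5.67% were past it higher and 2.91% lower, and counts of 0 to 2 in lists of this length are not read as a result about the lists.

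Both main classes were cut in 2 by a score of state markers, and the libraries filled the 2 parts, called states below, unequally. By a marker set of Mmp12, Spp1, Fn1, Trem2, Arg1 and Gpnmb, cut at the 75th percentile of the pooled class, 66 of 638 control alveolar macrophage-like cells (10.3%) and 316 of 890 fibrosis cells (35.5%) were high. Cells within 10% of that cut numbered 31 and 83, and the split is a range of a score and not a cell type. Within the fibrosis library, 10 of 27 members were past 1.5-fold higher in the high cells than in the low cells, where 4.79% of 7328 genes were, and 0 were lower, where 6.65% of genes were. The median log2 ratio was 0.43 over members and -0.066 over all genes.

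Of these 10 members, 6 were sterol enzymes. Idi1 had the largest difference, at 24.6 CPM in low and 63.1 CPM in high fibrosis cells (1.36, 0.94 to 1.79). Cyp51 stood at 34.9 and 65.1 CPM (0.90, 0.52 to 1.28), Sqle at 19.7 and 36.6 CPM (0.89, 0.38 to 1.41), and Insig1 at 23.9 and 44.8 CPM (0.90, 0.44 to 1.37). The other 6 members past the fold were Fdps, Msmo1, Hsd17b7, Sc5d, Dhcr7 and Stard4. Scd1 was nearly level between the states at 199 and 215 CPM (0.11, -0.07 to 0.29), and Elovl5 was lower in high cells at 86.1 and 58.5 CPM (-0.56, -0.89 to -0.24). Depth was 5052 UMIs per cell in low and 5720 in high fibrosis cells at the median.

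Between the libraries, the summed 15 mevalonate and sterol enzymes differed in the Mmp12-low cells and little in the Mmp12-high cells. The sum of the other 19 members, Scd1 among them, was higher in fibrosis in both. The summed level of the 15 mevalonate and sterol enzymes was 320 CPM (300 to 341) in the control low cells and 444 CPM (421 to 468) in the fibrosis low cells, a log2 ratio of 0.47 (0.35 to 0.59). In high cells it was 640 CPM (558 to 729) on 66 control cells and 678 CPM (642 to 715) in fibrosis, a ratio of 0.08 (-0.12 to 0.29). The other 19 members summed to 619 and 768 CPM in low cells (0.31, 0.22 to 0.40) and to 611 and 849 CPM in high cells (0.48, 0.27 to 0.69). Of these sums Scd1 made up 93.3 and 199 CPM in low cells and 80.7 and 215 CPM in high cells. Not all of the 19 were higher. In low cells Srebf1 had a log2 ratio of -0.31 and Elovl1 and Elovl5 had -0.12 each, with intervals that include 0. Low cells alone gave 7 members past the fold higher, and high cells alone 6 higher and 1 lower, Dhcr7, on 20 control UMIs. The share of all genes past the fold between the libraries was not counted within a state. These counts are therefore not read as a result about the members. Scd1 kept a large ratio in both states, at 1.09 in low and 1.41 (0.86 to 2.02) in high cells. Idi1, in contrast, was at 66.3 and 63.1 CPM in high cells of the control and fibrosis library. A clustering that left the 34 genes out of its variable genes put 566 control and 558 fibrosis cells of the gated class in 1 cluster, with 318 and 451 CPM of the 15 enzymes. Another cluster held 17 control and 247 fibrosis cells, with 1373 CPM (1141 to 1638) and 729 CPM (688 to 772), and a cluster mostly of 1 library may be that library and not a type.

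**Figure D4:**
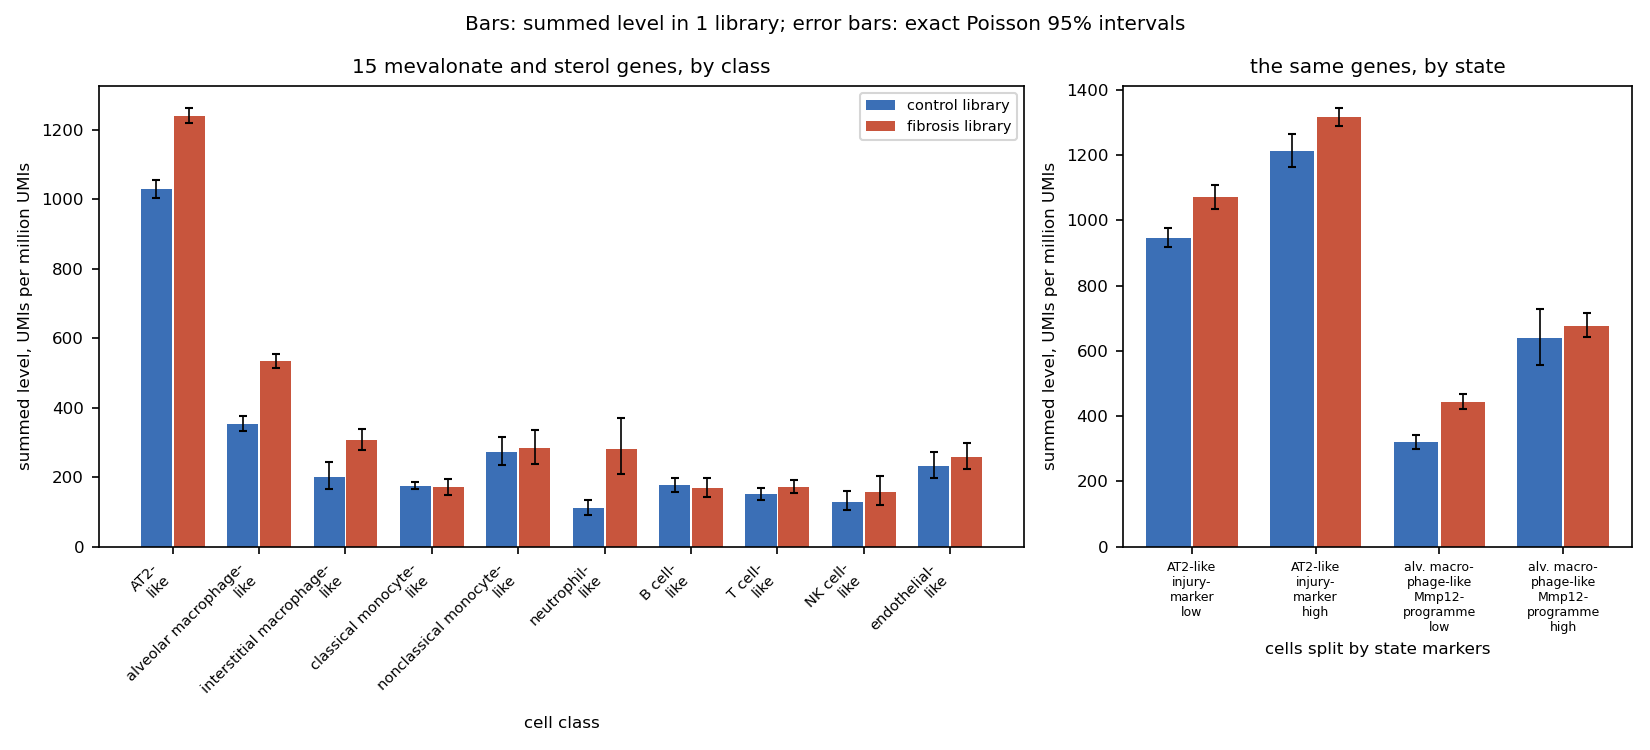
Summed level of the 15 mevalonate and sterol genes in CPM in the control (blue) and fibrosis (red) library, for 10 cell classes (left) and for AT2-like and alveolar macrophage-like cells split by state markers (right); error bars are exact Poisson 95% intervals. The fibrosis bar is clear of the control bar in AT2-like, alveolar macrophage-like, interstitial macrophage-like and neutrophil-like cells, in both AT2-like states, and in the Mmp12-low but not the Mmp12-high macrophage-like cells.

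AT2-like cells were split at the median of an injury-state marker set (Lcn2, Il33, Slc26a4, Chil1 and Lrg1). High cells were 274 of 996 in control (27.5%) and 1047 of 1646 in fibrosis (63.6%). Cells within 10% of that cut numbered 116 and 154. Within the fibrosis library 2 of 32 members were past the fold higher in high cells, where 2.58% of 8798 genes were, and 0 lower, where 6.04% were. These 2 were Fdps, at 159 CPM in low and 285 CPM in high cells (0.85, 0.70 to 0.99), and Me1, at 129 and 194 CPM (0.59, 0.43 to 0.75). Scd1 was at 6023 and 8609 CPM (0.52, 0.49 to 0.54). Srebf1 was lower in high cells at 72.2 and 54.9 CPM (-0.40, -0.64 to -0.15). The members' median log2 ratio was 0.15 against -0.11 over all genes. Between the libraries, the members' summed level had log2 ratios of 0.18 in low and 0.20 in high cells, against 0.32 over the class. Scd1 had 0.24 and 0.27, Me1 0.16 and 0.59, Elovl1 0.19 and -0.007, and Cyp51 0.67 and 0.34. The part of the mix of states in the ratios over the class was not tested.

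Across the other classes the 15 mevalonate and sterol enzymes differed between libraries in interstitial macrophage-like and neutrophil-like cells. In interstitial macrophage-like cells (156 and 356 cells) their summed level was 202 CPM (166 to 242) in control and 307 CPM (279 to 338) in fibrosis, a log2 ratio of 0.61 (0.30 to 0.92). In neutrophil-like cells it was 110 and 281 CPM (1.35, 0.84 to 1.84), on 61 fibrosis cells and 51 UMIs. Classical monocyte-like cells had 175 and 170.0 CPM (-0.04, -0.27 to 0.17) and nonclassical monocyte-like cells 273 and 284 CPM. The ratios of B cell-like, T cell-like, NK cell-like and endothelial-like cells lay between -0.07 and 0.29. Scd1, in contrast, was higher in the fibrosis library in all 10 classes, with an interval of the ratio that reached below 0 in neutrophil-like cells (-0.10 to 1.39). In each of the 9 classes other than AT2-like, the amount of Scd1 that AT2 RNA would bring was higher in the fibrosis library too.

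B cell-like cells held more Scd1 than that share. They had 226 CPM in control and 361 CPM in fibrosis, of which AT2 RNA at the Sftpc share would bring 53.2 and 85.2 CPM. After thinning each cell to 1000 UMIs, 18.6% of control and 31.1% of fibrosis B cell-like cells held a Scd1 UMI, against 5.56% and 11.8% of T cell-like cells. Without thinning the shares were 37.7% and 61.9% against 11.8% and 29.1%, at median depths of 1942 and 2584 UMIs in B cell-like and 2697 and 2694.5 in T cell-like cells.

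The share of cells with a UMI of any of the 15 mevalonate and sterol genes was also higher in fibrosis alveolar macrophage-like cells. At 1000 UMIs per cell it was 25.5% (22.2 to 29.1) of control and 35.2% (32.0 to 38.4) of fibrosis alveolar macrophage-like cells. In AT2-like cells the share was 58.9% (55.8 to 62.0) and 61.2% (58.8 to 63.6), with overlapping intervals. Intervals also overlapped in interstitial macrophage-like cells, at 17.3% and 21.1%, and in neutrophil-like cells, at 9.78% and 21.3%. In T cell-like cells the share was 12.4% and 12.0%. Unthinned, the share was 64.1% and 77.0% of alveolar macrophage-like cells, and 94.8% or more of AT2-like cells in both libraries. For Hmgcs1 alone the thinned shares were 3.76% and 6.63% of alveolar macrophage-like cells and 1.11% and 1.29% of T cell-like cells.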

How the data were processed

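Suspended lung cells were captured with 10x Genomics 3′ chemistry, per the labels' protocols. The submitters' processing notes name bcl2fastq, Cell Ranger 1.3 and mm10. The deposited matrices hold UMI counts per gene and cell, checked as whole numbers. Cells with at least 200 genes and at most 10% mitochondrial UMIs were kept: 8025 of 8280 and 6945 of 7173. They were gated by fixed markers into 19 classes with thresholds set from the marker distributions. Cells in several gates (762 and 810), possible doublets, were left out, and 1259 and 1034 met no gate. UMIs were summed per class and library. Poisson intervals and conditional binomial intervals of ratios are exact, and they cover counting error only (NumPy 2.4.6, SciPy 1.17.1, pandas 2.3.3). The computation of ratios and intervals was checked on simulated counts. A count of 0 allows up to 3 counts. Clusters (Leiden, Scanpy 1.11.5) and doublet scores served as alternatives. Gene positions are from GENCODE M21. Members and lists were chosen with earlier results of these data known. Values are named for members past 1.5-fold in either main class and for the 5 highest, and other members that a result turns on were named after their values were seen. Marker symbols matching no gene numbered 3. Some genes of the wider pathway list are counted but not reported here by name.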

Additional observations from a re-analysis of the deposited data

How the results depend on the processing

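Each alternative changed 1 choice. The share of all genes past the fold was not counted in the alternatives, so their counts of members have no share beside them. In alveolar macrophage-like cells the count of 14 members past the fold higher stayed between 11 and 18 except in 3 settings, and the count lower stayed at 0 except in 2. A 2-fold limit left 1 higher (Scd1), the Mmp12-low cells alone 7, and the Mmp12-high cells alone 6 with 1 lower (Dhcr7). At 20 UMIs per gene 1 was lower. The median of 0.61 became 0.31 in low and 0.22 in high cells. The summed log2 ratio of 0.46 became 0.52 with Leiden clusters, 0.53 with mitochondrial UMIs up to 5%, 0.37 in low cells, 0.29 in high cells and 0.36 without Scd1. In high cells Idi1 and Fdps turned to -0.071 and -0.15, as did Fdft1 (-0.35), Pmvk (-0.28), Dhcr7 (-0.59), Acaca (-0.069), Mvk (1.08), Srebf1 (0.35) and Elovl5 (0.26), on 2 to 29 control UMIs each and with intervals that include 0. In AT2-like cells 1 member was higher at 20 UMIs, 6 at mitochondrial UMIs up to 5% (380 and 759 cells left), and 1 each with no mitochondrial filter, in low and in high injury-marker cells, and 1 was lower in each of the last 4 and with the 50 most abundant genes left out of the total. The AT2-like median became 0.25 at 5%. The summed log2 ratio of 0.32 became 0.29 with Leiden clusters, 0.28 scaled by the median ratio, 0.25 without the top 50 genes, 0.48 at 5%, 0.31 without that filter, 0.18 in low cells, 0.20 in high cells and 0.17 without Scd1. The cause of these moves was not tested. Subtracting AT2 RNA, leaving out cycling or the deepest cells and leaving out Scd1 were chosen after seeing the data. No paired analysis was possible because each group has 1 mouse.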

Other observations

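Classes with fewer than 50 cells in a library had levels of some of these genes above those of the 10 larger classes, and they are given as values. Scd2 stood at 1492 CPM (1279 to 1729) in 27 control and 1819 CPM (1627 to 2028) in 36 fibrosis AT1-like cells, the thin gas-exchange cells of the alveolus, above its AT2-like level of 633 and 646 CPM. In the same AT1-like cells Scd1 had 2 UMIs in control and 32 in fibrosis, so the desaturase with the most UMIs was Scd2 in AT1-like and Scd1 in AT2-like cells. Idi1 reached 313 CPM (259 to 375) in 69 fibrosis migratory dendritic cell-like cells, above the 161 CPM of AT2-like cells, and 277 CPM on 12 UMIs in 8 control cells. Elovl5 was at 322 CPM (228 to 442) and 263 CPM (193 to 350) in AT1-like cells, above its endothelial-like level of 208 and 185 CPM. In plasmacytoid dendritic cell-like cells Fdps was at 284 CPM (206 to 383) in 41 control and 97.9 CPM (47.0 to 180) in 31 fibrosis cells, and Hmgcs1 at 192 and 88.1 CPM. Dhcr7, Sc5d and Mvd stood at 99.2, 79.4 and 79.4 CPM in the control cells of that class, on 15, 12 and 12 UMIs, and at 3, 4 and 3 UMIs in the fibrosis cells.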
